A study of Drosophila melanogaster with 8 samples.

Results

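The DNA replication machinery is described here through 35 listed genes that license origins, build and run the replication fork or supply its nucleotides. They were listed by name and known function, with earlier results of these data known, and matched from symbol to FlyBase identifier. Of the 35 genes, 31 were found in the count table of 14256 genes, and all 31 passed the filter on low counts that left 11163 genes for testing. *Mcm3*, *Orc1*, *RPA2* and *RPA3* were not matched and are not analysed here. RNA was read from whole testes of adult *Drosophila melanogaster* males 5 days old. The controls carried the *Tj-Gal4* driver (2 libraries), and the other genotype carried *Tj-Gal4/+; UAS-E(Pc) shRNA/+* (2 libraries), so the driver is shared by both. The latter are called the knockdown-labelled libraries. *Tj-Gal4* is active in somatic cells of the gonad, the cyst lineage and the hub, and the libraries hold the RNA of these cells together with that of the germ cells. Each library came from 1 pair of testes, so p-values measure the spread between 2 pairs per genotype.

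In every dividing cell, the origin recognition complex (ORC) marks origins, and Cdc6 and the fly Cdt1 protein, encoded by *double parked* (*dup*), load the ring of MCM proteins there. This licenses the origin, and Geminin blocks the loading once S phase has begun. CDC45 and the GINS complex then turn the MCM ring into an active helicase, the RFC complex loads the sliding clamp PCNA, RPA covers the unwound strand, and nucleases and a ligase finish the lagging strand. Ribonucleotide reductase makes the deoxynucleotides. In the adult fly testis, stem cells, spermatogonia and cyst stem cells divide at the tip, germ cells replicate a last time as they enter the spermatocyte stage, and spermatids and cyst cells that enclose germ cells no longer divide.

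The depth of the libraries ran from 3307767 to 6251181 counts, with knockdown-labelled replicate 1 the deepest. *E(Pc)*, the targeted gene, had 274 and 276 CPM (counts scaled to a common library total with edgeR's TMM factors) in the controls and 406 and 338 CPM in the knockdown-labelled libraries. The log2 fold change was 0.44 ± 0.18 (SE, n = 2 libraries per genotype) with an edgeR adjusted p of 0.083, so its RNA was not lower in the libraries labelled as knockdown, in a value that also holds the RNA of germ cells, in which the driver is not active. The labels were kept, and every direction below is drawn between the libraries as labelled. Counts levelled off at high coverage: the highest value in a library was 0.924 to 0.965 counts per base of merged exon, although depth differed between libraries. Counts, CPM and cRPKM of genes toward that ceiling are therefore compressed, most in the deepest library. The replication genes held 0.0131 to 0.395 counts per base on average, and at most 0.553 in a library.

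Of the 31 replication genes, 18 rose in the knockdown-labelled libraries, led by *Claspin*, *Cdc6*, *RnrL* and *tos*, and *lat*, counted together with another gene, fell. *geminin*, *RpA-70* and *Gnf1*, which have the highest levels per length as a mean over all 4 libraries, did not pass the test in either direction. edgeR's quasi-likelihood test (Benjamini-Hochberg adjusted p under 0.05) called 58.1% of the genes higher and 3.23% lower. Of all genes tested, 22.5% were called higher and 11.4% lower. The median log2 fold change was 0.68 for the replication genes and 0.00 for all genes. At least 2-fold rises were called in 7 replication genes and in 8.79% of all genes. The knockdown-labelled pair lay above the control pair, with no overlap, in 22 of the 31 genes and below it in 5, beside 38.9% and 33.8% of all genes. DESeq2 called 11 replication genes higher and 1 lower, where it called 13.0% and 6.49% of all genes. Without *Tj-Gal4* replicate 1, 10 of the 31 genes were called higher, at 10.6% of all genes, and without *Tj-Gal4* replicate 2 the count was 12, at 14.8%. It was 16 without the deepest library, *Tj>E(Pc) shRNA* replicate 1, at 23.1% of all genes, and 21 without replicate 2 of that genotype, at 28.5%.

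**Figure D1:**
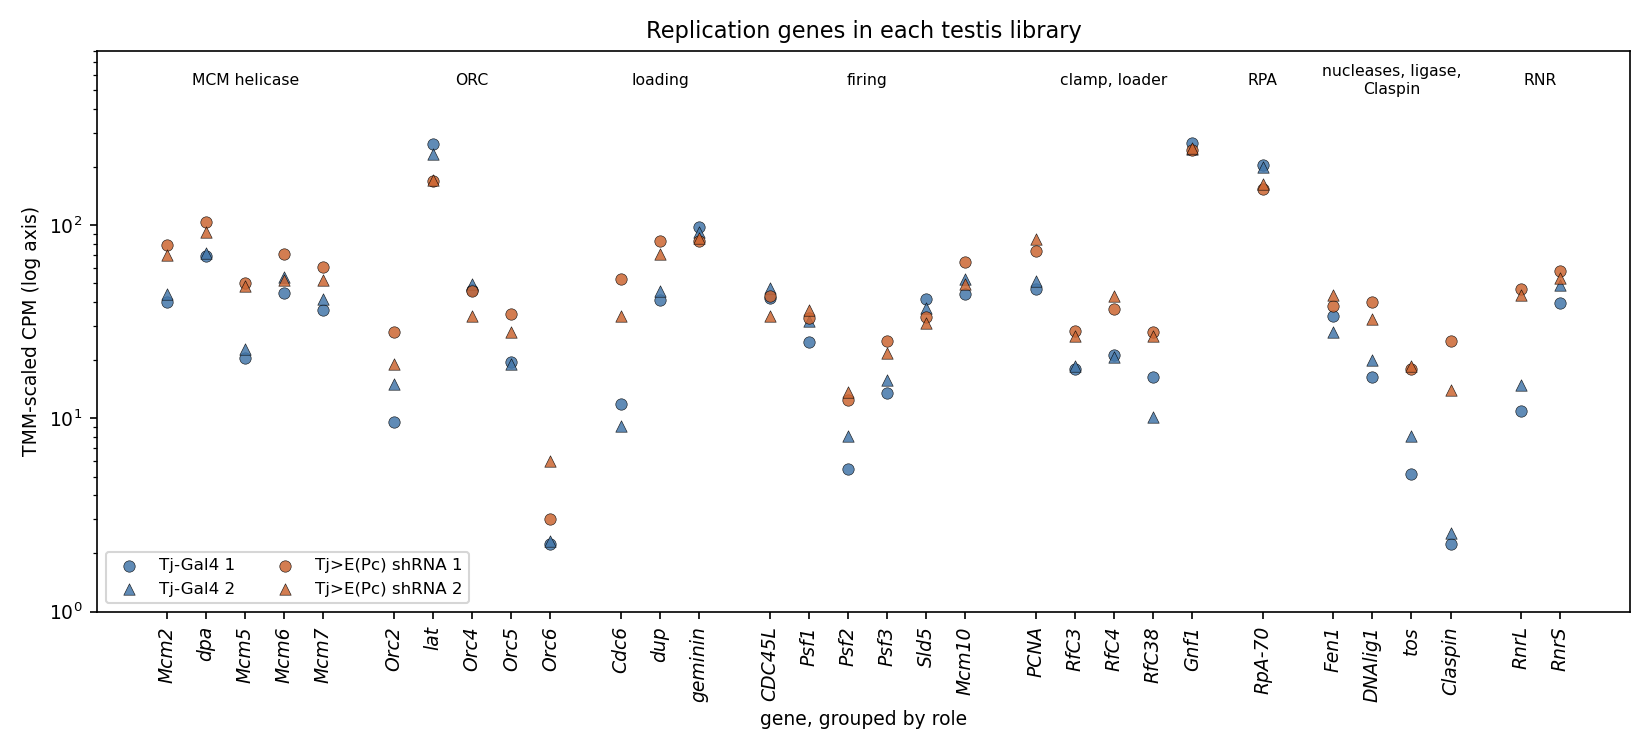
TMM-scaled CPM (log axis) of each of the 31 replication genes in each library, grouped by role, with blue points for the 2 *Tj-Gal4* libraries and orange points for the 2 knockdown-labelled libraries (circles for replicate 1, triangles for replicate 2). Both orange points lie above both blue points in 22 genes, most widely in *Claspin*, and below both in 5.

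The MCM helicase, the motor of the fork, was measured through 5 of its 6 subunits, and 4 of the 5 rose. *Mcm5* (FBgn0017577) had 20.5 and 23.0 CPM in the controls and 50.5 and 48.2 CPM in the knockdown-labelled libraries. Its log2 fold change of 1.17 ± 0.17 (SE; edgeR adjusted p = 0.000788) was the largest in the complex. *Mcm2* had 40.1 and 44.2 CPM in the controls and 78.7 and 69.9 CPM in the other genotype, a log2 fold change of 0.82 ± 0.14 (edgeR adjusted p = 0.00206). *Mcm7* had 36.2 and 41.4 CPM against 61.0 and 52.0 CPM, a log2 fold change of 0.54 ± 0.15 (edgeR adjusted p = 0.0208). The counting was not stated to use strand, and an antisense gene overlaps *Mcm7*, so reads of the pair cannot be told apart. *dpa*, the fly *Mcm4*, had 69.6 and 71.4 CPM against 104 and 92.3 CPM, a log2 fold change of 0.48 ± 0.13 (edgeR adjusted p = 0.0205). In none of these 4 genes did the genotypes overlap, where the knockdown-labelled pair lay above the control pair in 38.9% of all genes. *Mcm6* overlapped between the genotypes, with 44.6 and 54.2 CPM against 71.3 and 51.8 CPM, a log2 fold change of 0.33 ± 0.18 (edgeR adjusted p = 0.165). The calls of *Mcm2* and *Mcm5* stood with each library left out, those of *dpa* and *Mcm7* were lost without *Tj-Gal4* replicate 1 (0.44 for both), and that of *dpa* also without *Tj-Gal4* replicate 2 (0.50). DESeq2 called *Mcm2* and *Mcm5* but not *dpa* (adjusted p = 0.148) or *Mcm7* (adjusted p = 0.147).

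Of 5 measured subunits of ORC, which marks the origin, 2 rose, 1 that shares its counts with another gene fell and 2 were not called. *Orc2* had 9.62 and 15.1 CPM in the controls and 27.9 and 19.2 CPM in the knockdown-labelled libraries, a log2 fold change of 0.92 ± 0.29 (SE; edgeR adjusted p = 0.0325). *Orc5* had 19.6 and 19.1 CPM against 34.7 and 27.9 CPM, a log2 fold change of 0.71 ± 0.20 (edgeR adjusted p = 0.0233). It overlaps *GatC* and *PolG2*, each listed with 64, 100, 254 and 161 counts and a log2 fold change of 0.90 (edgeR adjusted p = 0.00472). How many of the reads counted for *Orc5* come from these neighbours was not tested. The call of *Orc2* was lost without *Tj-Gal4* replicate 1 (0.64) or *Tj>E(Pc) shRNA* replicate 1 (0.60), and that of *Orc5* without any library but *Tj>E(Pc) shRNA* replicate 2 (0.54 to 0.71). DESeq2 called neither *Orc2* (adjusted p = 0.0781) nor *Orc5* (adjusted p = 0.113). *lat* (FBgn0005654), the fly *Orc3*, had 264 and 233 CPM in the controls and 169 and 172 CPM in the other genotype, a log2 fold change of -0.55 ± 0.16 (edgeR adjusted p = 0.0228). Its counts of 824, 1002, 1116 and 627 are the same in all 4 libraries as those listed for *CG34315*, a gene that overlaps it and has the same length of 3275 bp in the table. The value therefore belongs to the pair, and *lat* alone cannot be told apart from *CG34315*. The call was lost without *Tj-Gal4* replicate 1 (-0.47) or replicate 2 (-0.63), with same-numbered libraries as a replicate block (adjusted p = 0.0809) and in both limma fits of cRPKM (adjusted p = 0.0589 and 0.076). *Orc4*, with 46.2 and 49.8 CPM against 45.6 and 34.0 CPM, had a log2 fold change of -0.25 ± 0.17. *Orc6* was the least counted subunit, with 7 and 10 counts in the controls and 20 and 22 in the other libraries, and its log2 fold change of 0.89 ± 0.49 (edgeR adjusted p = 0.168) had the largest error of the 31 genes.

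Of the 3 genes that load the MCM ring or control its loading, both loaders rose and the inhibitor was not called. *Cdc6* (FBgn0035918) had 11.9 and 9.08 CPM in the controls and 52.4 and 34.0 CPM in the knockdown-labelled libraries. This was a 4.24-fold difference (log2 2.08 ± 0.27, SE; edgeR adjusted p = 0.000509), which stayed between 1.72 and 2.34 on the log2 scale with each library left out. *Cdc6* lies inside *Zasp66*, a gene of the muscle Z-disc, whose own log2 fold change was 0.46 (edgeR adjusted p = 0.106). *dup* had 41.1 and 45.8 CPM against 82.8 and 70.7 CPM, a log2 fold change of 0.82 ± 0.14 (edgeR adjusted p = 0.00235). *geminin*, whose product holds Dup inactive, had 98.1 and 92.1 CPM in the controls and 82.5 and 86.3 CPM in the other genotype, and its log2 fold change of -0.17 ± 0.13 did not pass (edgeR adjusted p = 0.298). Levels of inhibitor and loaders were compared per length, in cRPKM, the authors' RPKM from edgeR pseudo-counts. The ratio of *geminin* to *dup* was 7.52 and 6.31 in the controls and 3.12 and 3.85 in the knockdown-labelled libraries, and that of *geminin* to *Cdc6* was 20.9 and 26.0 against 3.91 and 6.45. Neither ratio overlapped between the genotypes. With occupied positions converted to reads, they were 8.82 and 7.83 against 4.15 and 4.43, and 24.8 and 32.5 against 5.37 and 7.53. That conversion takes coverage as even along a gene. After it, the 75th percentile of all genes still exceeded the 25th 11.8 and 10.9 times in the controls and 8.47 and 9.62 times in the other libraries. Whether the ratios fell beyond such a narrowing of all levels was not tested.

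The firing factors, which turn the loaded ring into a moving helicase, had 2 of 6 genes called. Of the GINS subunits, *Psf2* had 5.45 and 8.14 CPM in the controls and 12.5 and 13.7 CPM in the knockdown-labelled libraries, a log2 fold change of 0.91 ± 0.31 (SE; edgeR adjusted p = 0.0469). *Psf3* had 13.5 and 15.8 CPM against 25.2 and 21.9 CPM, a log2 fold change of 0.69 ± 0.23 (edgeR adjusted p = 0.0407). Both calls were lost without *Tj-Gal4* replicate 1 (0.66 for *Psf2* and 0.56 for *Psf3*) or replicate 2 (1.26 and 0.82), and that of *Psf3* also without *Tj>E(Pc) shRNA* replicate 1 (0.57). DESeq2 (adjusted p = 0.136 and 0.155), upper-quartile scaling, scaling by library size alone and a replicate block each lost both calls. The other GINS subunits had log2 fold changes of 0.26 ± 0.19 (*Psf1*) and -0.28 ± 0.16 (*Sld5*). *CDC45L* (-0.21 ± 0.17) and *Mcm10* (0.24 ± 0.17), which join the helicase at firing, overlapped between the genotypes. *CDC45L* lies inside *su(w[a])*, whose own log2 fold change was 0.47 (edgeR adjusted p = 0.0471).

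**Figure D2:**
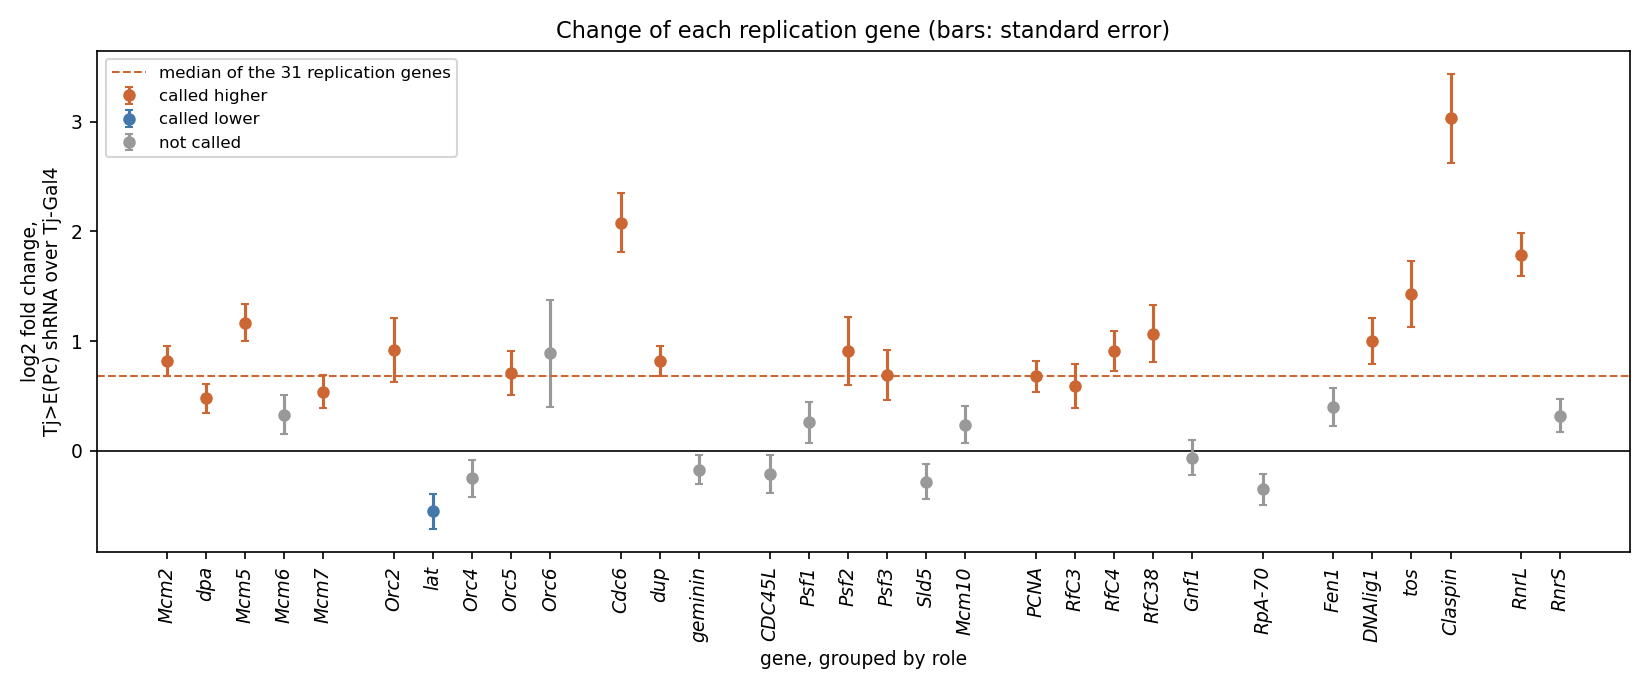
Fitted log2 fold change of the 31 replication genes, knockdown-labelled libraries over *Tj-Gal4* (points) with its standard error (bars), by role; orange points were called higher, blue lower and grey not called, and the dashed line is the median of 0.68. Values run from -0.55 (*lat*, counted together with *CG34315*) to 3.03 (*Claspin*).

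At the fork, the sliding clamp and 3 of the 4 measured subunits of its loader rose. *PCNA* had 46.5 and 51.7 CPM in the controls and 73.3 and 84.9 CPM in the knockdown-labelled libraries, a log2 fold change of 0.68 ± 0.14 (SE; edgeR adjusted p = 0.00582). Among small subunits of the loader RFC, *RfC38* (FBgn0028700) had 16.4 and 10.2 CPM against 28.1 and 26.6 CPM, a log2 fold change of 1.07 ± 0.26 (edgeR adjusted p = 0.0105). *RfC4* had 21.2 and 20.9 CPM against 36.9 and 43.0 CPM (0.91 ± 0.18, edgeR adjusted p = 0.00445). *RfC3* had 18.0 and 18.6 CPM against 28.2 and 26.8 CPM (0.59 ± 0.20, edgeR adjusted p = 0.0445). The genotypes did not overlap in any of them, beside 38.9% of all genes with the knockdown-labelled pair above the control pair. The call of *PCNA* was lost without *Tj-Gal4* replicate 1 (0.59), that of *RfC38* without *Tj-Gal4* replicate 2 (0.75), and that of *RfC3* with any library but *Tj>E(Pc) shRNA* replicate 2 left out (0.55 to 0.62), with DESeq2 (adjusted p = 0.191) and with the scalings and block that lost the GINS calls. *Gnf1*, the large subunit of the loader, overlapped, with 268 and 247 CPM against 246 and 250 CPM and a log2 fold change of -0.06 ± 0.16, whose sign was positive (0.02) with library size alone as the scaling. *RpA-70* (FBgn0010173), the large subunit of the strand-covering complex RPA, had 204 and 200 CPM in the controls and 154 and 164 CPM in the other genotype. Its knockdown-labelled pair lay below the control pair, as in 33.8% of all genes. The log2 fold change of -0.35 ± 0.14 did not pass in the main test (edgeR adjusted p = 0.086). *RpA-70* was called lower in 3 of 14 alternative fits with 4 libraries, and its change was negative in all 18 settings.

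Of the nucleases, the ligase and the checkpoint adaptor, 3 of 4 rose, with the largest change of all 31 genes among them. *Claspin* (FBgn0052251), which links a stalled fork to the checkpoint kinase, had 7 and 11 counts in the controls and 167 and 51 counts in the knockdown-labelled libraries. In CPM these were 2.24 and 2.56 against 25.2 and 14, an 8.19-fold difference (log2 3.03 ± 0.41, SE; edgeR adjusted p = 0.000652). The 2 knockdown-labelled libraries differed from each other, but each was far above the controls, and the log2 fold change stayed between 2.52 and 3.36 with each library left out. *tos* (FBgn0015553), the fly exonuclease Exo1, had 5.13 and 8.14 CPM against 18.1 and 18.6 CPM, a log2 fold change of 1.43 ± 0.30 (edgeR adjusted p = 0.00558). It lies inside *CG31751*, whose own log2 fold change was -0.08 (edgeR adjusted p = 0.743). *DNAlig1* (FBgn0262619), the ligase that seals Okazaki fragments, had 16.4 and 20.0 CPM against 40.2 and 32.6 CPM, a log2 fold change of 1.0 ± 0.21 (edgeR adjusted p = 0.00524). *Fen1*, the flap nuclease of the same step, had 34.0 and 27.9 CPM against 38.4 and 43.3 CPM, and its log2 fold change of 0.40 ± 0.17 did not pass (edgeR adjusted p = 0.0945).

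Of the subunits of ribonucleotide reductase, the large one rose and the small one was not called. *RnrL* (FBgn0011703), the large catalytic subunit, had 10.9 and 14.9 CPM in the controls and 47.0 and 43.6 CPM in the knockdown-labelled libraries, a 3.46-fold difference (log2 1.79 ± 0.20, SE; edgeR adjusted p = 0.000322). *RnrS*, the small subunit, had 39.4 and 49.3 CPM against 57.7 and 53.4 CPM, and its log2 fold change of 0.32 ± 0.15 did not pass (edgeR adjusted p = 0.123). Per length, *RnrS* exceeded *RnrL* 5.78 and 5.26 times in the controls and 1.96 times in each of the other libraries, and whether their fold changes differ was not tested.

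Levels per length were compared with the authors' cRPKM, and they differed widely between subunits of the same complex. The median over the replication genes was 15.1 cRPKM in the controls and 20.7 cRPKM in the knockdown-labelled libraries, against 20.5 and 25.7 cRPKM for the 11773 genes with a cRPKM. Over all 4 libraries, 11 of the 31 genes had a mean above the all-gene median of 23.2 cRPKM. The highest means over all 4 libraries were those of *geminin* (90.0 ± 4.14 cRPKM in the controls and 79.7 ± 3.28 in the other genotype, SD, n = 2 each), *RpA-70* (88.5 ± 1.12 and 69.6 ± 3.44), *Gnf1* (73.6 ± 4.22 and 70.7 ± 1.31) and *lat* with *CG34315* (71.0 ± 6.38 and 48.5 ± 1.04). The lowest were *Claspin* (0.501 ± 0.0473 and 4.13 ± 1.76) and *Orc6* (2.26 ± 0.0527 and 4.35 ± 2.47). With 2 libraries against 2, an exact two-sided permutation test of a level cannot go below p = 0.333, so the levels are given as a description.

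Levels of subunits of a complex lay closer together in the knockdown-labelled libraries, and so did those of all genes. Over 11712 genes with a cRPKM above 0 in every library, the 75th percentile exceeded the 25th 10.7 and 9.37 times in the controls and 6.79 and 8.72 times in the other libraries. In the MCM helicase the highest measured subunit, *dpa*, exceeded the lowest 2.95 and 2.69 times in the controls and 1.80 and 1.77 times in the other libraries. In the clamp and loader group the same ratio was 8.05 and 12.1 against 4.29 and 4.92, in the firing group 8.46 and 5.04 against 3.01 and 2.81, and in ORC, with *lat* and *CG34315* as the highest, 34.0 and 28.9 against 18.3 and 8.08. In each group the libraries of the genotypes did not overlap. The genes were also split by level. Of the 8 genes with the highest mean cRPKM (28.0 to 84.8) 2 were called higher and 1 lower, the median log2 fold change being -0.12. Of the other 23 genes (2.31 to 25.7 cRPKM) 16 were called higher, with a median of 0.82. The cut after 8 genes was arbitrary. Of all genes, 45.5% were called higher at 0.05 to 0.1 counts per base, 16.1% above that range and 22.0% below it. A smaller share called higher at high coverage was thus not particular to the replication genes.

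**Figure D3:**
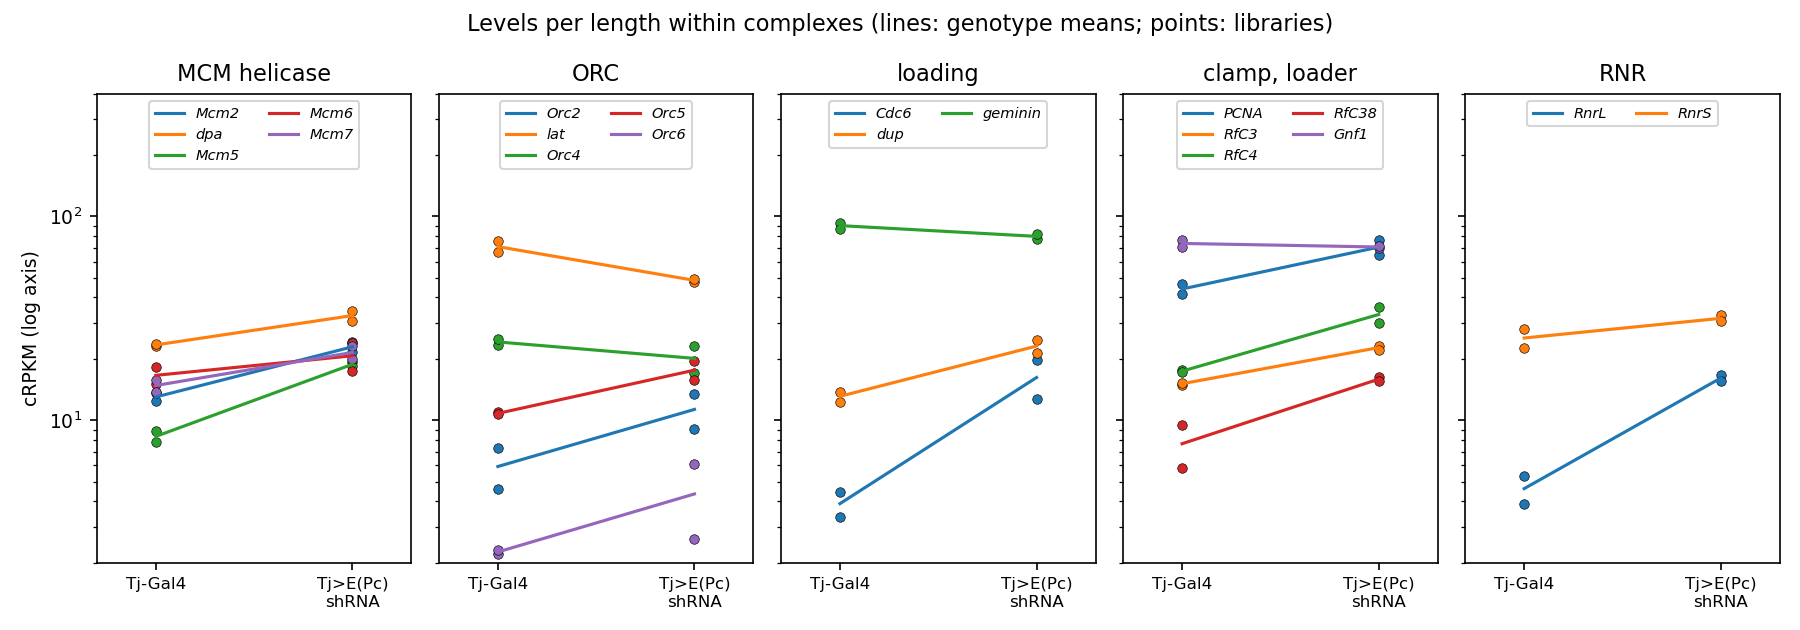
Levels per length (cRPKM, log axis) of the subunits of the MCM helicase, ORC, the loading factors, the clamp with its loader and ribonucleotide reductase (RNR) in *Tj-Gal4* and in knockdown-labelled libraries; points are libraries and lines join genotype means. The lines of *Cdc6* (3.90 to 16.2) and *RnrL* (4.62 to 16.1) climb toward those of their partners, and *lat* (71.0 to 48.5, counted together with *CG34315*) falls.

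The fold changes of all genes also varied with coverage, so the replication genes were read against genes of like coverage, in ranges chosen after the data were seen. From 0.05 to 0.1 counts per base, where 15 replication genes lay, 12 were called higher, beside 45.5% of all genes in that range, and the median log2 fold changes were 0.82 and 0.46. Under 0.05 counts per base, 3 of 4 replication genes were called higher, beside 22.0% of all genes, with medians of 1.18 and 0.12. At 0.1 and above, 3 of 12 were called higher (*dpa*, *PCNA* and *RfC4*), beside 16.1% of all genes, with medians of 0.10 and -0.14. Between 0.2 and 0.4 counts per base, which holds *lat*, *RpA-70*, *Gnf1*, *geminin*, *Sld5* and *PCNA*, the middle 50% of all genes ran from -0.35 to 0.16. *PCNA* (0.68) lay above that range, *lat* (-0.55) below it, *RpA-70* (-0.35) at its lower end and the other 3 inside it. In the window from 0.05 to 0.06 counts per base, where the same range was -0.09 to 0.96, lay 5 replication genes. *Cdc6* (2.08), *RnrL* (1.79), *RfC38* (1.07) and *DNAlig1* (1.0) were above that range and *Psf2* (0.91) was inside it.

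**Figure D4:**
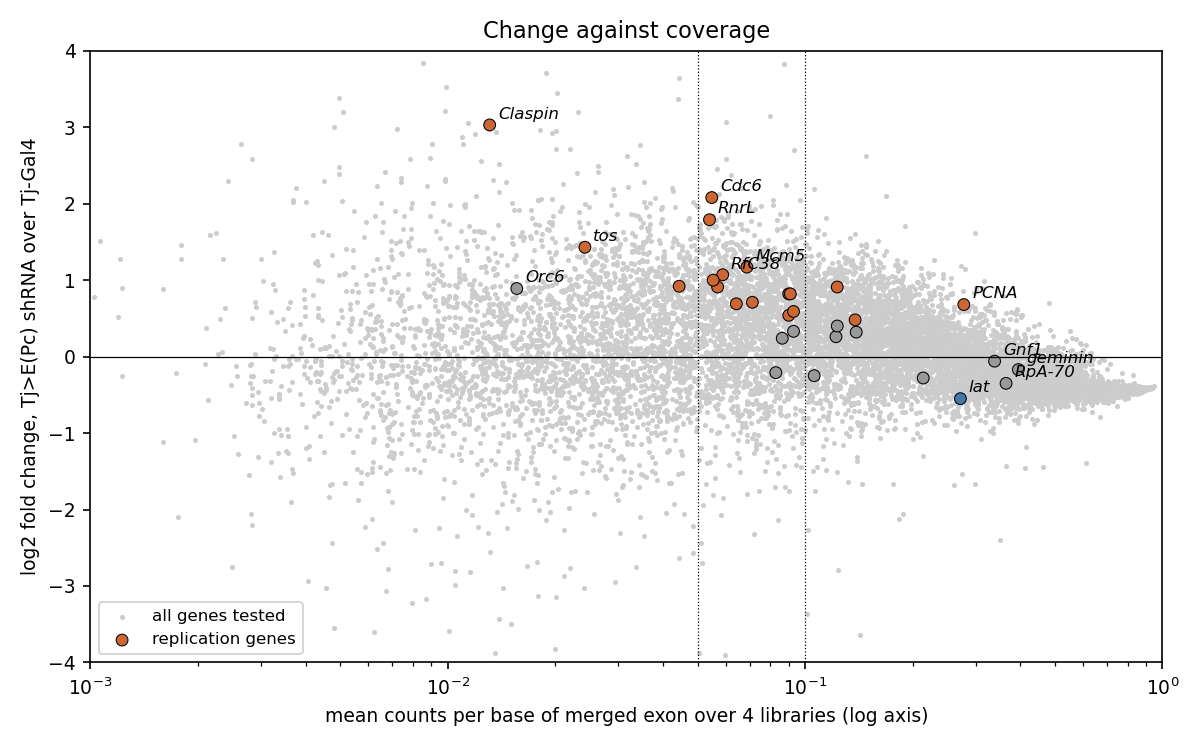
Log2 fold change, knockdown-labelled libraries over *Tj-Gal4*, against mean counts per base of merged exon (log axis) for all 11163 genes tested (small grey points) and the 31 replication genes (large points, orange called higher, blue called lower, grey not called); dotted lines mark 0.05 and 0.1 counts per base, and all-gene points beyond 4 in either direction are outside the frame. Between the lines 12 of 15 replication genes were called higher, and at 0.1 and above 3 of 12.

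Of 32 other genes listed with the pathway, 14 rose (43.8%, beside 22.5% of all genes), and the median log2 fold change over the 32 was 0.43. Neither this list nor those below, spermatid genes aside, were read against genes of like coverage. All were chosen with earlier results of these data known. The share of all genes called higher ran from 16.1% to 45.5% across the coverage ranges above. Where DESeq2 called 13.0% of all genes higher, it called 9 of the 32. None (0) was called lower by either tool, nor at an unadjusted edgeR p under 0.05. Of 8 polymerase and primase genes 3 rose, led by *PolA1*, the catalytic subunit of polymerase alpha. It had 14.4 and 13.3 CPM in the controls and 59.1 and 51.8 CPM in the other genotype (log2 2.01 ± 0.18, SE; edgeR adjusted p = 0.000121). The others were *PolD1* (0.65 ± 0.14), the catalytic subunit of polymerase delta, and *PolE2* (0.59 ± 0.20), of polymerase epsilon. Of 7 genes listed with the firing kinases and factors 4 rose. Among them were *rec* (1.57 ± 0.29), an MCM-related gene of meiotic recombination, *chif* (1.21 ± 0.13), the activator of the Cdc7 kinase, and the helicase *RecQ4* (1.04 ± 0.22). *Cdc7* itself was not called (-0.28), nor was *CycE* (0.02).

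Of 9 genes of fork protection, clamp regulation and topoisomerases 4 rose, among them *elg1* (1.35 ± 0.17), which unloads PCNA, *l(2)dtl* (1.29 ± 0.21), the ubiquitin ligase adaptor that removes Dup in S phase, and *cutlet* (0.88 ± 0.27), of an alternative clamp loader. Of 3 genes that assemble nucleosomes behind the fork, *Caf1-180* rose from 2.57 and 3.49 CPM to 26.6 and 21.4 CPM (log2 2.96 ± 0.32; edgeR adjusted p = 0.000239). Its partner *Caf1-105* had 129 and 139 CPM against 137 CPM in each library of the other genotype (0.03), and the histone chaperone *asf1* rose (1.18 ± 0.18).

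E2F, its repressive partners and the factor DREF are known as regulators of replication genes in flies. Of 9 genes listed for S phase transcription control, which also include *dap* and *Dp*, 6 were called higher (66.7%, beside 22.5% of all genes). The median log2 fold change over all 9 was 0.96. *Dref* rose from 34.6 and 28.9 CPM to 79.5 and 81.6 CPM (1.35 ± 0.15, SE; edgeR adjusted p = 0.000239), and *Rbf2* (1.45 ± 0.28), a retinoblastoma family gene, and *mip120* (1.38 ± 0.19), of the Myb-MuvB complex, also rose. *E2f1* (0.38) and *E2f2* (-0.09) were not called. Of 18 mitotic cell cycle genes 8 were called higher (44.4%, beside 22.5% of all genes), with a median of 0.12. The condensin subunits *SMC2* (1.48 ± 0.14) and *glu* (1.15 ± 0.13) and the Cdc25 phosphatase *stg* (1.36 ± 0.35) led them, while *CycA* (0.08), *CycB* (-0.29) and *polo* (-0.26) were not called.

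Markers of cell types of the testis were read in the same contrast. Of 8 early germline markers 5 were called higher by edgeR (62.5%, beside 22.5% of all genes) and 5 by DESeq2 (beside 13.0% of all genes). Their median log2 fold change was 1.49, and their summed level was 383 to 404 CPM in the controls and 641 to 644 CPM in the knockdown-labelled libraries. Those with the largest changes were *ovo* (3.21 ± 0.31), *zpg* (2.05 ± 0.19) and *bam* (1.62 ± 0.22). *bgcn*, which acts with *bam*, was not called (0.06). The summed level of the 31 replication genes was 1560 to 1570 CPM in the controls and 1750 to 1870 CPM in the other genotype. Whether more cells that replicate or more RNA per such cell were present cannot be told apart in whole testes, and the part of the early germline markers in the result was not tested.

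Of 11 genes of the spermatocyte program 5 were called higher (45.5%, beside 22.5% of all genes), with a summed level of 837 to 860 against 974 to 1020 CPM. The largest changes called were those of *comr* (0.71 ± 0.14), *tomb* (0.67 ± 0.23) and *can* (0.62 ± 0.14). Of 13 spermatid genes 3 were called lower (23.1%, beside 11.4% of all genes), *ProtA* (-0.60 ± 0.15), *fzo* (-0.55 ± 0.18) and *ProtB* (-0.53 ± 0.18). The sums of the list were 1950 to 2490 CPM in the controls and 1310 to 1910 in the other genotype. At the coverage of most spermatid genes, 0.6 to 1 counts per base, the middle 50% of all genes had log2 fold changes from -0.47 to -0.40, and 12.4% were called lower. Of the 3 spermatid genes called, *fzo* (0.615 counts per base) lay in that range, and *ProtA* (0.406) and *ProtB* (0.480) lay below it. Of 8 genes listed as cyst lineage markers 2 were called higher (25%, beside 22.5% of all genes), *zfh1* (0.65 ± 0.19) and *piwi* (0.59 ± 0.15). In whole testes the rise of *piwi* cannot be assigned to the cyst lineage. *so* was called lower (-1.38 ± 0.31; 12.5%, beside 11.4% of all genes). The list had a median of 0.11 and sums of 648 to 668 against 734 to 835 CPM. The uncalled *chinmo* (0.49) made up 309 to 332 CPM of the sum in the controls and 439 to 457 CPM in the other genotype. Of 4 hub markers 3 were called lower (75%, beside 11.4% of all genes), *hh* (-1.26 ± 0.15), *CadN* (-0.57 ± 0.17) and *upd1* (-0.45 ± 0.14). Their list had sums of 268 to 307 against 184 to 211 CPM. DESeq2 called 1 spermatocyte gene higher, 2 spermatid genes and 1 hub marker lower, and no cyst lineage marker higher (0, with 3 at an unadjusted edgeR p under 0.05). Of all genes, DESeq2 called 13.0% higher and 6.49% lower. The part of these lists in the result was not tested.

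Markers of tissues that can adhere to a dissected testis were also read. Of 9 muscle sheath genes *Act57B* was called lower (-0.53 ± 0.13; 11.1%, beside 11.4% of all genes), with sums of 1220 against 1060 to 1100 CPM. The 2 accessory gland genes tested, *Acp36DE* (0.21) and *Acp95EF* (-0.51), were not called, with sums of 54.8 to 61.2 against 58.1 to 66.6 CPM, and *Acp26Aa*, *Acp62F*, *Acp70A* and *Sems* held at most 1.40 CPM in a library. Of 3 fat body genes tested *Lsp2* was called higher by edgeR (0.98 ± 0.31; 33.3%, beside 22.5% of all genes) and none (0) by DESeq2. The sums of the list were 141 to 175 against 134 to 180 CPM, and *Yp1*, *Yp2* and *Fbp1* held at most 0.962 CPM.

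**Figure D5:**
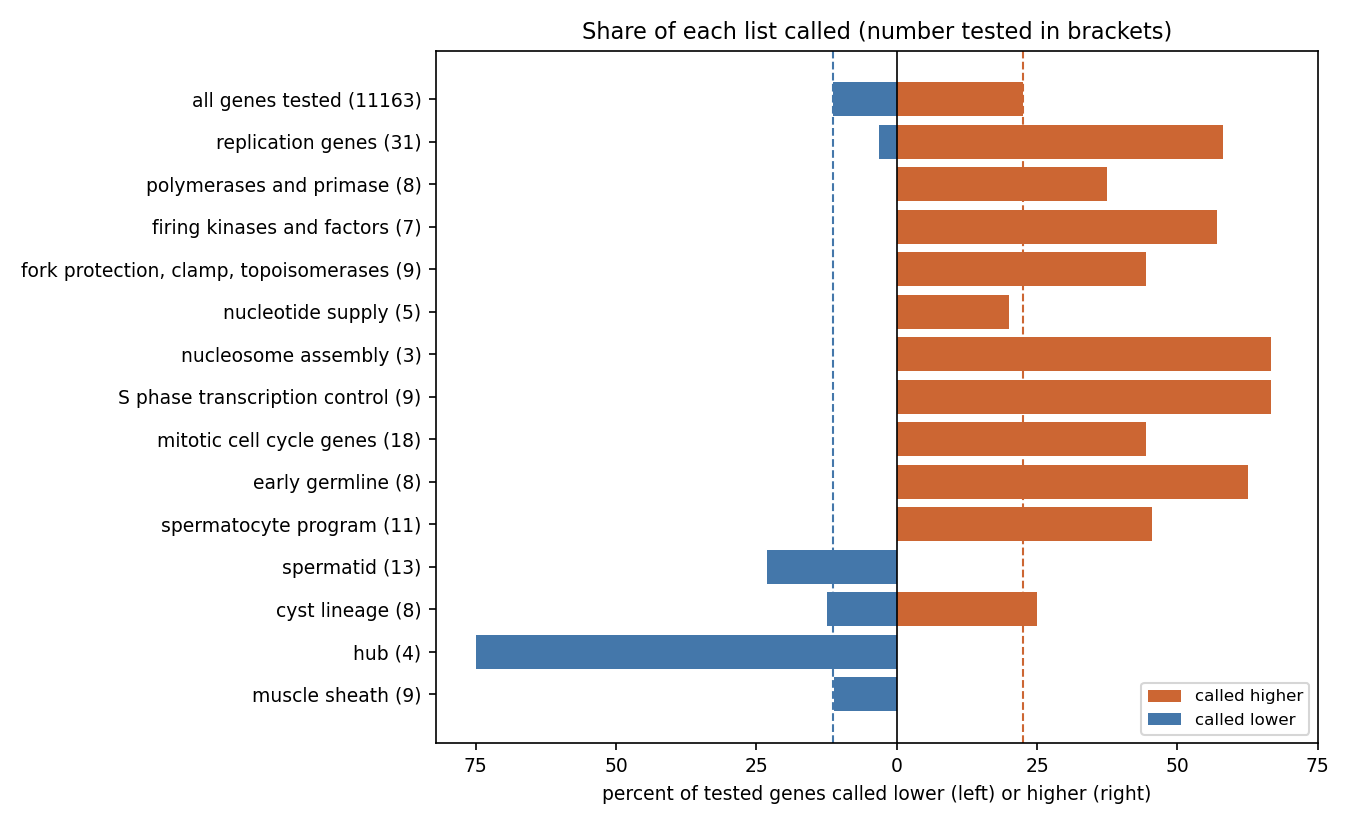
Percent of the tested genes of each list that edgeR called higher (orange, to the right) or lower (blue, to the left) in knockdown-labelled libraries, with the number tested in brackets and dashed lines at the shares of all genes, 22.5% and 11.4%. The replication genes reach 58.1% called higher and early germline markers 5 of 8, and 3 of 4 hub markers were called lower.

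The spans of 15 of the 31 replication genes overlap another annotated gene in the reference annotation (Release 6), and 16 do not. Of the 18 genes called higher, 9 overlap no other gene. Besides those named above, *Orc2* overlaps *rdx*, *dup* overlaps *SRPK*, *Psf3* overlaps *CG17841*, *RfC38* overlaps *Nup160* and *DNAlig1* overlaps *Upf3*. The log2 fold changes were 0.38 for *CG17841*, -0.05 for *Nup160* and -0.13 for *Upf3*. How many reads counted for these replication genes come from their neighbours was not tested. Besides *lat*, *Cdc6*, *CDC45L* and *tos* lie inside another gene, and their counts differed from those of that gene in every library.

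Of the 18 replication genes called higher, 8 were called higher in all 14 alternative fits with 4 libraries and with each of the 4 libraries left out. These were *Mcm2*, *Mcm5*, *Cdc6*, *dup*, *RfC4*, *DNAlig1*, *tos* and *RnrL*, and they hold a member of licensing, loading, clamp loading, ligation, resection and nucleotide supply. *Claspin* was called in every setting in which it was tested, and a minimum of 10 counts in every library removed it.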

How the data were processed

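RNA-seq of whole testes was analysed in 4 libraries, 2 per genotype, grouped by the sample labels. The authors aligned single-end reads with Bowtie 0.12.7 to dm3, kept reads with a single alignment site and deposited whole-number counts over merged exons of FlyBase genes, without normalization. The paper's methods state that a read over overlapping genes was shared between them; strand was not mentioned. The authors derived RPKM per gene, termed cRPKM, from pseudo-counts of edgeR and the length of merged exons. Of 14256 identifiers, 13564 matched a symbol. ChIP-seq samples were not analysed here. Total counts ran from 3307767 to 6251181.

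Here edgeR 4.0.16 in R 4.3.3 was used over all 11163 genes passing filterByExpr: TMM factors, quasi-likelihood F test, Benjamini-Hochberg adjustment and calls at an adjusted p under 0.05. CPM are TMM-scaled. Alternatives were DESeq2 1.42.0, other scalings, filters and call rules, edgeR's exact test, replicate blocks, length and depth trends, occupied positions converted to reads, limma 3.58.1 on log2(cRPKM + 1) and + 0.1, and each library left out. Fits were also run on simulated counts with known changes. These counts had no ceiling per base and no coverage trend, so the run cannot show how the fits handle either.

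Values in every library are given for each called member and, in a role group with none, for the member of highest level; other members were summarised. In other lists up to 3 called genes per direction with the largest change were named, except that those of nucleotide supply are not reported here; further genes, such as *Cdc7*, *CycE*, *Caf1-105*, *E2f1*, *E2f2*, *CycA*, *CycB*, *polo*, *chinmo* and *bgcn*, and values per library of uncalled members were chosen after their values were seen. Members and lists were chosen with earlier results of these data known. Promoter sequences were not used here.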

Additional observations from a re-analysis of the deposited data

How the results depend on the processing

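With 31 replication genes tested, the count called higher was 18 in the main test, 11 with DESeq2, 9 with limma on log2(cRPKM + 0.1), 10 at an adjusted p under 0.01, 15 to 19 in the other alternatives with 4 libraries (17 of the 29 genes left with at least 10 counts per library), and 10 to 21 with a library left out. The count called lower (1) was 0 with a replicate block (also with the length trend removed), in both limma fits, at 1.5-fold and at p under 0.01, 2 with the crossed block, with positions converted to reads and with the depth trend removed, and 0 to 2 with a library left out. For all genes, calls higher (2517) were 1453 with DESeq2, 1558 with limma (+ 0.1), 1478 at p under 0.01 and 1219 to 3288 with a library left out. Calls lower (1272) were 724 with DESeq2, 3014 with the crossed block, 2232 with positions converted to reads and 2348 with the depth trend removed (beside 3022 and 2741 higher), 511 and 323 with limma (+ 1 and + 0.1), 668 at 1.5-fold, 338 at p under 0.01 and 447 to 2652 with a library left out. The median log2 fold change of the replication genes (0.68) was 0.59 with at least 10 counts per library, 0.56 with the depth trend removed and 0.56 to 0.69 with a library left out. *Gnf1* (-0.06) was 0.02 with library size alone and with positions converted to reads. The median control level (15.1 cRPKM) was 16.1 as TMM-scaled counts per kb. The 18 genes called higher were positive in every setting that tested them. Except for fewer samples or a stricter rule, the cause of these changes was not tested.

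Same-numbered libraries deviated from their genotype means with a correlation of -0.25 across genes, and the labels do not say that numbers pair libraries. The replicate block called 15 replication genes higher and 0 lower (2107 and 888 of all genes), and the crossed pairing 19 and 2 (3190 and 3014). The crossed pairing joined the shallower library of each genotype (3307767 and 3691459 counts) and the deeper library of each (4273908 and 6251181). Pairing and depth therefore cannot be told apart in that fit. Depth limits *Orc6* and *Claspin*, with at most 11 counts in a control library.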
